A study of Mus musculus with 12 samples.

Results

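The genes described here are 7 factors that hold blood-forming cells in the bone marrow or mark the cells that make such factors: Cxcl12, Cxcr4, Kitl, Vcam1, Angpt1, Lepr and Il7. They were chosen by symbol from the 53801 genes of the deposited tables, and all 7 were among the 15119 genes that passed the filter on low counts. Bulk RNA was sequenced from the marrow of C57BL/6N mice in 4 groups of 3 libraries, 12 in all. Sham mice had the control operation. MI mice had a myocardial infarction, made by tying off the left anterior descending coronary artery. Sham-E and MI-E mice had the same operations and were given EMPA, an agent that the labels do not spell out further. The sources used here give no age, no dose and no time between surgery and sampling. The labels do not say that each library is a separate mouse, so the p-values measure the spread between these libraries, which may be technical.

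In the marrow, reticular stromal cells around the sinusoids make the chemokine CXCL12, and haematopoietic cells that carry its receptor CXCR4 stay close to them. The same stromal cells express the leptin receptor LEPR and make stem cell factor, which is encoded by Kitl and acts on the receptor KIT. VCAM1 is an adhesion molecule of stromal cells, endothelium and marrow macrophages that binds the integrin VLA-4, a dimer of ITGA4 and ITGB1, on blood cells. Angiopoietin-1 signals through the receptor TEK, and IL-7 is the stromal cytokine that early B-lineage cells need.

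The libraries held 21175087 to 24606783 counts. Markers of mature neutrophils summed to between 25200 and 42800 CPM (counts scaled to library size and edgeR's TMM factors) in every library, as in marrow, where these cells are abundant. Library 1 of Sham-E stood apart: the mean log2 CPM of 20 early B-lineage genes was 3.28 there and 6.07 and 6.12 in the other Sham-E libraries. Library 3 of MI had the highest level of the 15 resident macrophage genes, 1930 summed CPM against 945 to 1500 in the other 11 libraries. The mean insert length recovered from the ratio of counts to TPM was 263.3 to 265.2 bp in MI and 271.1 to 286.9 bp in the other 3 groups. Infarction without EMPA and insert length cannot be told apart in comparisons with MI.

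Levels between genes were compared on TPM, which corrects for transcript length. Cxcr4 was the most abundant of the 7, at 310 TPM ± 51.2 (SD, n = 12 libraries), and its lowest library (206 TPM) lay above the highest library of any other member. Vcam1 followed with 92.5 TPM ± 36.6 and Cxcl12 with 73.3 TPM ± 37.5 (SD, n = 12 each). The ranges of these genes overlapped, and in MI-E the order of the means was the other way round, with Cxcl12 at 113 TPM ± 28.1 and Vcam1 at 80.1 TPM ± 17.9 (SD, n = 3 each). The remaining members were far lower. Angpt1 had 3.77 TPM ± 1.05, Lepr 1.82 TPM ± 1.17 and Kitl 1.65 TPM ± 0.515 (SD, n = 12 each), with overlapping ranges. Il7 was the lowest at 0.199 TPM ± 0.135 (SD, n = 12), and its highest library (0.46 TPM) was below the lowest library of each other member.

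**Figure D1:**
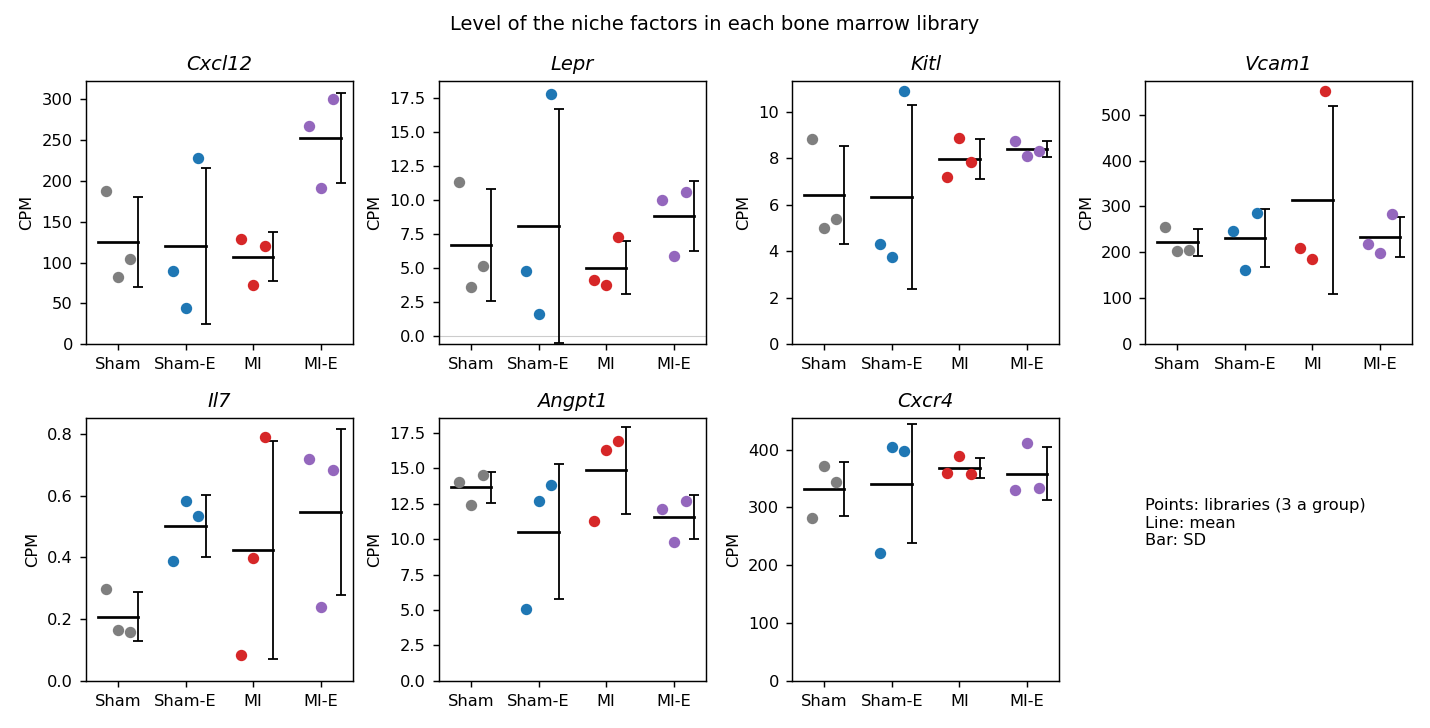
CPM of each of the 7 genes in every library (points, 3 a group), with the group mean (line) and SD (bar), on linear axes. For Cxcl12 the 3 MI-E libraries lie between 192 and 300 CPM and the 3 MI libraries between 73.1 and 129 CPM; the other genes overlap between these 2 groups.

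None of the 7 genes passed the edgeR quasi-likelihood test (adjusted p under 0.05) in any of the 5 comparisons. Across all genes tested, 0.417% passed in MI against Sham and 0.00661% in MI-E against MI. In the Sham-E comparisons, with Sham and with MI-E, 0% passed. In the interaction 0.00661% passed; it asks whether the MI-E against MI difference differs from the Sham-E against Sham difference. At an unadjusted p under 0.05, 1 of the 7 passed in MI-E against MI, namely Cxcl12, beside 17.4% of all genes. No member did so in the other comparisons, where 19.5% (MI against Sham), 13.5% (interaction), 13.4% (MI-E against Sham-E) and 1.9% (Sham-E against Sham) of all genes did. The libraries of the groups did not overlap for 1 member in MI-E against MI (Cxcl12, beside 21.7% of all genes) and for 1 in Sham-E against Sham (Il7, beside 8.98%). They overlapped for all 7 in MI against Sham (27.3% of all genes did not overlap) and in MI-E against Sham-E (23.9%). DESeq2, limma-voom and limma on log2(TPM + 1) also called no member. DESeq2 called 577 genes in all in MI-E against MI, so the number of calls over all genes depended strongly on the tool. Even these 577 were a small share of the genes tested. At such a share a set of 7 genes would most often hold 0 calls, so the 0 does not set the members apart from other genes.

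**Figure D2:**
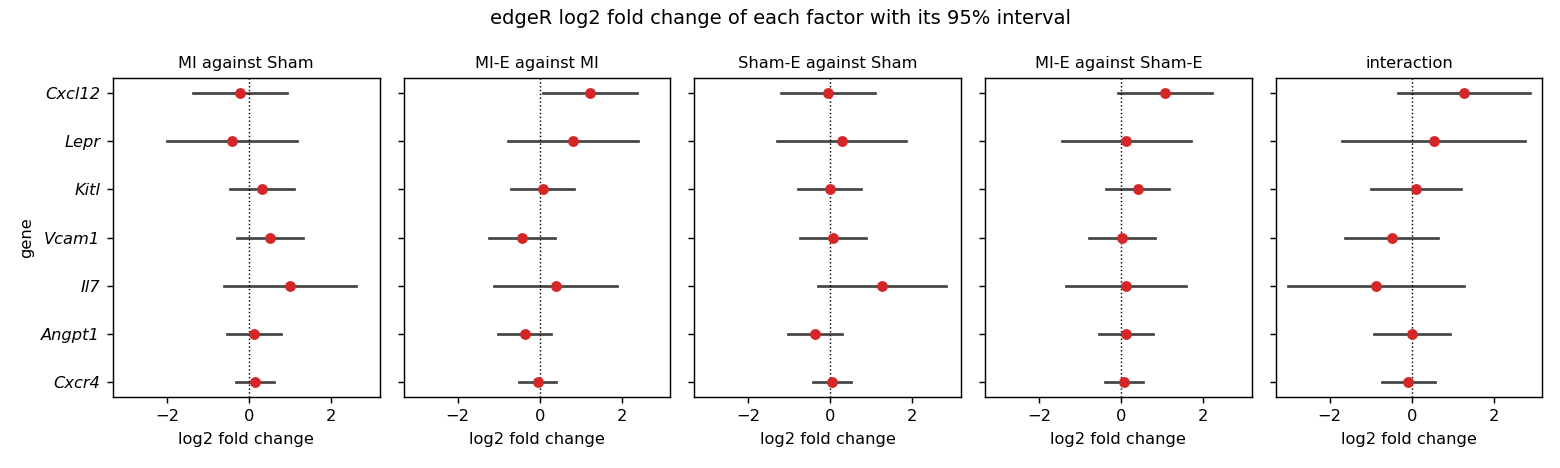
edgeR log2 fold change (points) and its 95% interval (lines) of each gene in the 4 comparisons between groups and in the interaction. The interval of Cxcl12 in MI-E against MI, 0.08 to 2.38, is the only one that leaves out 0.

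Cxcl12 lies on mouse chromosome 6 (mm10 and GENCODE M21, chr6:117168535-117181367, plus strand). Its level was 188, 82.5 and 105 CPM in Sham libraries 1, 3 and 4, and 89.3, 44.3 and 228 CPM in Sham-E libraries 1, 2 and 3. It was 129, 73.1 and 120 CPM in MI libraries 1, 2 and 3, and 267, 192 and 300 CPM in MI-E libraries 2, 3 and 4. All 3 MI-E libraries lay above all 3 MI libraries and above all Sham libraries, while Sham-E library 3 lay within the MI-E range. The MI-E mean was 253 CPM ± 55.3 and the MI mean 108 CPM ± 30.2 (SD, n = 3 each). That is a log2 fold change of 1.23 ± 0.52 (SE, 95% interval 0.08 to 2.38), which did not pass the correction over all genes (edgeR adjusted p = 0.26). Leaving out each library in turn gave log2 fold changes from 1.02 to 1.40, and the adjusted p over the 19 alternatives ran from 0.10 to 0.50. The unadjusted edgeR p was no longer under 0.05 without MI library 2 or 3 or without MI-E library 2 or 4. The same held without the filter on low counts.

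In MI-E against Sham-E, which shares the MI-E libraries, the log2 fold change of Cxcl12 was 1.07 ± 0.52 (edgeR adjusted p = 0.40). Leaving out each library in turn gave 0.66 to 1.92, highest without Sham-E library 3. The interaction was 1.28 ± 0.73 (edgeR adjusted p = 0.45), and 0.88 to 2.14 with each library left out, again highest without that library. MI against Sham gave -0.22 ± 0.51 and Sham-E against Sham gave -0.05 ± 0.51 (SE), and their 95% intervals of -1.35 to 0.92 and -1.19 to 1.08 leave room for a change of either sign. In bulk marrow, a different number of stromal cells and a different amount of Cxcl12 RNA per stromal cell cannot be told apart.

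Lepr, the receptor for leptin and a marker of the reticular stroma, lies at chr4:101717404-101815352 on the plus strand. Its level was 11.3, 3.57 and 5.16 CPM in the Sham libraries, 4.8, 1.63 and 17.8 CPM in Sham-E, 4.12, 3.72 and 7.25 CPM in MI and 9.98, 5.86 and 10.6 CPM in MI-E, in the library order given for Cxcl12. The highest and the lowest library of the whole series were both Sham-E, 10.9-fold apart. On the log2 scale MI-E differed from MI by 0.81 ± 0.72 (SE, edgeR adjusted p = 0.59), with overlapping groups. Sham-E against Sham gave 0.28 ± 0.71, but -1.05 without Sham-E library 3 and -0.23 by limma-voom.

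The promoters of Cxcl12 and Lepr are shown because these genes varied together across the libraries. That of Cxcr4, the receptor on the responding cells, is shown because its correlation with theirs did not pass over the 12 libraries. The sequences are from RefSeq on GRCm38 (mm10), which held promoters for 4 of the 7 members, and run up to the annotated transcript start, 5′ to 3′ on the gene's strand. They cover chr6:117168285-117168534 (Cxcl12, plus), chr4:101717157-101717403 (Lepr, plus, the upstream of its 2 RefSeq starts) and chr1:128592300-128592549 (Cxcr4, minus). Capitals mark GGGCGG, the core of the GC box bound by Sp-family factors, and TATAAA, the TATA box, each on either strand, with overlapping matches merged.
Cxcl12: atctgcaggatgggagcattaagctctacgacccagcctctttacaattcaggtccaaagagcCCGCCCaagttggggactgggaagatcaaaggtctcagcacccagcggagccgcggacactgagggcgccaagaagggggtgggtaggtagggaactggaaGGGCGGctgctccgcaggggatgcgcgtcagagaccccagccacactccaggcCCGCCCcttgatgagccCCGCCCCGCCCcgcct
Lepr: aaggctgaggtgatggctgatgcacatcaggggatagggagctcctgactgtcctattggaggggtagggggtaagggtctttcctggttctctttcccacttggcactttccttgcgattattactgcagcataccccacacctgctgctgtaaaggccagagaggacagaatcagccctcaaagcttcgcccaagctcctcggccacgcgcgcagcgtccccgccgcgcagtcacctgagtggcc
Cxcr4: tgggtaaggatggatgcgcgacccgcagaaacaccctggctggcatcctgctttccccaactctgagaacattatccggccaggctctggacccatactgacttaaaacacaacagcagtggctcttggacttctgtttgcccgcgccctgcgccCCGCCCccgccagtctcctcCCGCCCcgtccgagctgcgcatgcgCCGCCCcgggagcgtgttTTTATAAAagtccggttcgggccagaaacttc
The 250 bases upstream of Cxcl12 held 5 GGGCGG matches, those of Cxcr4 held 3, and those of the Lepr start shown held 0. The 2 TATAAA matches of Cxcr4 were on opposite strands and overlapped, and the other pair had 0. Of 32851 mouse promoters read the same way, 32.7% held GGGCGG and 12.4% held TATAAA. The G and C share was 64.4% for Cxcl12, 61.2% for Cxcr4 and 58.4% for Lepr, against a median of 52.4% over all promoters. The 250 bases upstream of the other Lepr RefSeq start held 1 GGGCGG and 0 TATAAA, at 54.8% G and C. Those of Kitl, which also varied with Cxcl12 and Lepr, held 3 GGGCGG and 1 TATAAA, at 69.2%. Only 59 of the Kitl bases lie upstream of every annotated start, and its sequence is not shown. A match is a run of letters and shows no binding.

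Kitl (chr10:100015630-100100416, plus strand) encodes stem cell factor. Its level was 8.83, 5.01 and 5.4 CPM in Sham, 4.32, 3.77 and 10.9 CPM in Sham-E, 7.18, 8.87 and 7.84 CPM in MI and 8.76, 8.1 and 8.33 CPM in MI-E. The MI and MI-E libraries formed a narrow band inside the range of the Sham and Sham-E libraries. The group means were 7.97 CPM ± 0.853 in MI and 8.39 CPM ± 0.332 in MI-E (SD, n = 3 each), a log2 fold change of 0.08 ± 0.36 (SE, 95% interval -0.70 to 0.85, edgeR adjusted p = 0.93). MI against Sham gave 0.31 ± 0.36 (edgeR adjusted p = 0.66). KIT, the receptor for stem cell factor, was coded by a transcript present at 51.4 to 92.1 CPM.

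Vcam1 (chr3:116109949-116129688, minus strand) stood at 256, 204 and 205 CPM in Sham, 247, 161 and 285 CPM in Sham-E, 209, 185 and 551 CPM in MI and 219, 199 and 283 CPM in MI-E. MI library 3 was the highest of the 12, and the other 11 lay between 161 and 285 CPM. MI against Sham gave 0.51 ± 0.37 on the log2 scale (SE, edgeR adjusted p = 0.47), and -0.17 without MI library 3. MI-E against MI gave -0.43 ± 0.37 (edgeR adjusted p = 0.57), and 0.25 without it. MI library 3 was also the library with the highest resident macrophage level. Hmox1, the haem oxygenase of macrophages that break down red cells, reached 602 CPM there against 190 to 302 CPM elsewhere. The list was not uniform in this library, which was not the highest for Adgre1, Axl, Siglec1, Slc40a1, Timd4 and Vsig4 but was for the rest. Adgre1 stood at 54.3 CPM there and at 52.5 to 101 CPM elsewhere. Of the 15 macrophage genes, 0 passed in MI against Sham by edgeR, DESeq2, limma-voom or limma on TPM, and 2 did at an unadjusted p under 0.05 by edgeR, a share below the 19.5% of all genes. The log2 fold change was positive for 10 of them, with a median of 0.23 (0.02 over all genes). Their summed level was 1160 to 1230 CPM in Sham, 945 to 1500 CPM in Sham-E, 1110 to 1930 CPM in MI and 948 to 1290 CPM in MI-E, with none of the 15 at 0 in any library. The part of macrophage RNA in the Vcam1 values was not tested. The partners of VCAM1 on blood cells were read at 222 to 485 CPM for Itga4 and 162 to 233 CPM for Itgb1, and Itga4 was also highest in MI library 3.

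Angpt1 (chr15:42424723-42676977, minus strand) stood at 14, 12.4 and 14.5 CPM in Sham, 5.06, 12.7 and 13.8 CPM in Sham-E, 11.3, 16.3 and 16.9 CPM in MI and 12.1, 9.77 and 12.7 CPM in MI-E. Sham-E library 1 was the lowest, and it was also the library with few early B-lineage transcripts. The MI-E against MI difference was -0.37 ± 0.30 in log2 units (SE, edgeR adjusted p = 0.56), negative under each of the 19 alternatives (-0.55 to -0.26). Its receptor Tek was rare, at 0.798 to 2 CPM. The exons of Angpt1 share 14.2% of their bases with the antisense gene Gm17473, and the sources used here do not say whether the counts kept strand, so reads of this pair could not be told apart.

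Il7 (chr3:7569994-7613760, minus strand) was close to the limit of detection. It was covered by 7, 4 and 4 counts in Sham, 9, 15 and 12 in Sham-E, 2, 8 and 16 in MI and 17, 5 and 15 in MI-E, 114 counts in all. The 3 Sham-E libraries (0.389 to 0.582 CPM) lay above the 3 Sham libraries (0.159 to 0.299 CPM). The fitted log2 difference was 1.26 ± 0.72 (SE), with an edgeR adjusted p of 1. Summed over a group, Il7 had 15 counts of 69676538 in Sham and 36 counts of 70200180 in Sham-E. The exact 95% Poisson intervals of these sums, which cover counting error only, ran from 8.4 to 24.7 and from 25.2 to 49.8 counts and did not overlap. Il7r, which encodes the IL-7 receptor chain, stood at 12.0 CPM in Sham-E library 1 and at 31.4 to 69.0 CPM in the other 11 libraries.

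Cxcr4 (chr1:128588199-128592293, minus strand) was the steadiest of the 7, with 281, 371 and 344 CPM in Sham, 222, 404 and 397 CPM in Sham-E, 360, 389 and 358 CPM in MI and 331, 411 and 333 CPM in MI-E. Sham-E library 1 was again the lowest. The log2 fold change was 0.15 ± 0.21 in MI against Sham and -0.04 ± 0.21 in MI-E against MI (SE, edgeR adjusted p = 0.72 and 0.94). The 95% interval in MI-E against MI, -0.50 to 0.41, bounds a change of this receptor more tightly than that of any other member. Its other ligand MIF, its scavenging partner ACKR3 and the peptidase DPP4, which trims CXCL12, were read beside it. Mif stood at 58.7 CPM ± 29.1 in MI and 103 CPM ± 4.35 in MI-E (SD, n = 3 each), 0.81 ± 0.29 apart on the log2 scale (SE, edgeR adjusted p = 0.194). Ackr3 was at 0.0865 to 1.87 CPM and Dpp4 at 23.3 to 62.8 CPM, lowest in Sham-E library 1.

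The spread between libraries of one group differed among the members. The SD of log2 CPM within groups was 1.01 for Lepr, 0.74 for Il7, 0.72 for Cxcl12, 0.51 for Vcam1, 0.47 for Kitl, 0.44 for Angpt1 and 0.28 for Cxcr4, beside a median of 0.29 over the 15119 genes tested. Il7 rested on 2 to 17 counts a library, Lepr on 42 to 401 and Cxcl12 on 1140 to 6585. In Sham-E, library 2 was the lowest and library 3 the highest for Cxcl12, Lepr, Kitl and Vcam1 alike. In Sham, library 3 was the lowest and library 1 the highest for the same 4 genes.

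Correlations of log2 CPM over the 12 libraries were computed for the 21 pairs of members, with 100000 permutations and Benjamini-Hochberg adjustment over the 21. The permutations, here and for the lists below, shuffled all 12 libraries without regard to group. Their p-values therefore also take in differences between groups, and the r within groups has no p-value. Cxcl12 and Lepr had r = 0.89 (permutation adjusted p = 0.0034) and rho = 0.85 (0.014). The r was 0.83 without the 2 libraries farthest from the median of Cxcl12, and 0.96 within groups. Kitl and Lepr had r = 0.79 (permutation adjusted p = 0.02) and rho = 0.69 (0.11), with r = 0.70 without the 2 farthest and 0.88 within groups. Cxcl12 and Kitl had r = 0.76 (permutation adjusted p = 0.032) and rho = 0.57 (0.24), with 0.65 and 0.83 in the same checks. Vcam1 and Lepr passed by rank (rho = 0.79, permutation adjusted p = 0.036) and not by r (0.55, 0.29). No pair of Cxcr4 passed, with r = -0.09 against Cxcl12 and -0.19 against Lepr. Without Sham-E library 1 these were -0.43 and -0.45, for which no p-value was computed. The r of Cxcr4 with Angpt1, 0.64 (permutation adjusted p = 0.29), was -0.20 without Sham-E library 1 and so rested on that library.

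The same measure was taken between each member and the mean log2 CPM of lists of cell type genes, 77 pairs in all. The lists were chosen with earlier results of these data known, so their p-values are not those of an independent test. The reticular stromal list includes Fstl1, Serping1 and Adipoq, the 3 genes most like Cxcl12 among the 10926 ranked. For the 21 tested genes of the reticular stromal list, which holds no member, Cxcl12 had r = 0.96 and rho = 0.94 (permutation adjusted p = 0.00077 and 0.0015), 0.93 without the 2 farthest libraries and 0.97 within groups. Lepr had r = 0.91 and rho = 0.91 (0.0012 and 0.0041 by permutation), 0.84 and 0.96 in the same checks. Its values with the endothelial list were much the same, at r = 0.88 and rho = 0.92 (permutation adjusted p = 0.0026 and 0.0031), 0.88 in both checks. With the stromal list Kitl had r = 0.74 and rho = 0.59 (permutation adjusted p = 0.053 and 0.21), 0.88 and 0.76 in the same checks. The r with that list was 0.51 for Vcam1, 0.18 for Angpt1 and for Il7, and -0.09 for Cxcr4, and none of these passed. Vcam1 had its highest r with the resident macrophage list, 0.87 (rho 0.78, permutation adjusted p = 0.006 and 0.035). Without the 2 libraries farthest from the median that r was 0.58, and without MI library 3 it was 0.72. Cxcl12 also went with the 4 tested genes of the adipocyte list, of which Adipoq is on the stromal list too (r = 0.87 and rho = 0.90, permutation adjusted p = 0.0044 and 0.0042). Its r was 0.85 with the list of receptors and other partners described at the end (permutation adjusted p = 0.009), 0.82 with the megakaryocyte list (permutation adjusted p = 0.015) and 0.81 with the endothelial list (permutation adjusted p = 0.015). The r of Angpt1 with the early B-lineage list, 0.70 (permutation adjusted p = 0.12), was 0.20 without Sham-E library 1, and that of Cxcr4 dropped from 0.57 to -0.01. These points share the make-up of each marrow sample, and a shared cell source was not tested.

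**Figure D3:**
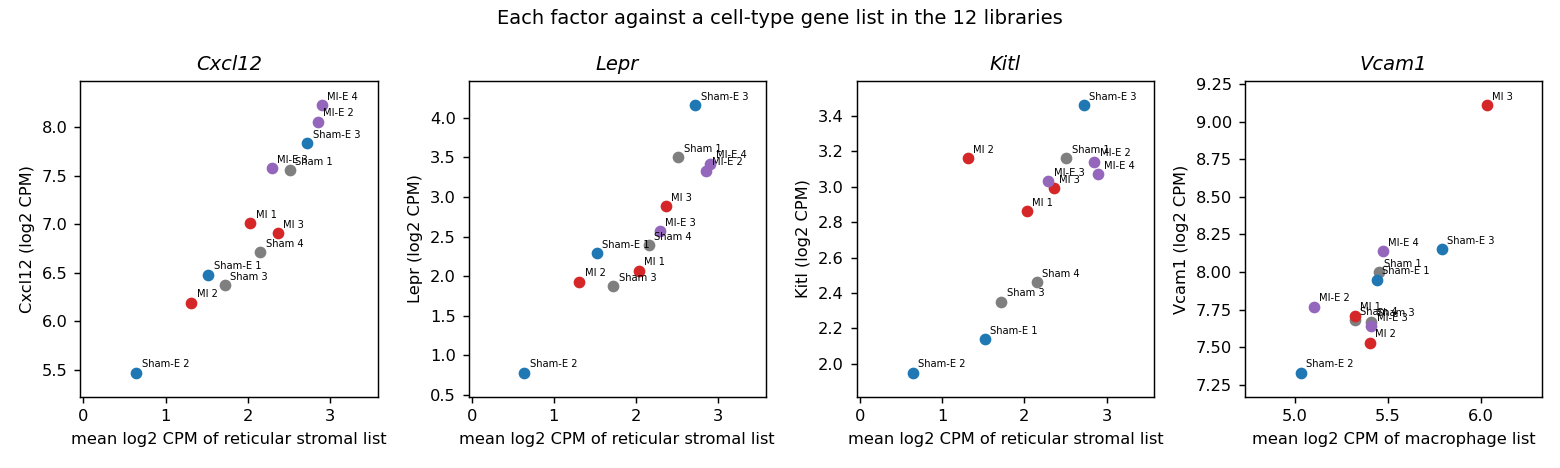
log2 CPM of 4 genes (vertical axes) against the mean log2 CPM of the reticular stromal list or, for Vcam1, the resident macrophage list (horizontal axes) in the 12 libraries. Cxcl12 and Lepr follow the stromal list from Sham-E library 2 at the lower left to the libraries at the upper right; MI library 3 stands alone at the top right for Vcam1.

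Of the 10926 genes ranked by their correlation with each member, those most like Cxcl12 were Fstl1 (r = 0.981), Serping1 (0.968) and Adipoq (0.963), 3 genes that are also on the stromal list. The genes most like Lepr were Fbln5 (0.934), Cp (0.933) and Plxdc2 (0.93), and 10 genes ranked above Lepr in likeness to Cxcl12. For Kitl they were Cp (0.855), Gdpd2 (0.85) and Adamts2 (0.85). Vcam1 was most like Acsl1 (0.936), Mtmr10 (0.933) and Slco2b1 (0.933). Angpt1 was most like Il7r (0.937), with a rho of only 0.64, and then Ngly1 (0.922) and Kat2b (0.908). Those most like Cxcr4 included Dcaf11 (0.902) and Lbh (0.866). For Il7 the leading values were lower, 0.79 for Pcgf6, 0.785 for Adat1 and 0.775 for Ubxn2a, on counts too low to read. All are over 12 libraries.

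The stromal list gave the context of Cxcl12 in MI-E. Of its 21 tested genes, 17 had a positive and 4 a negative log2 fold change in MI-E against MI, with a median of 0.74 beside -0.02 over all genes. By edgeR 0 passed after adjustment. At an unadjusted p under 0.05 by edgeR 3 of the 21 passed, no larger a share than the 17.4% of all genes, and DESeq2, limma-voom and limma on TPM called 0 as well. The lowest p belonged to Igfbp5, an insulin-like growth factor binding protein (1.34 ± 0.54, edgeR adjusted p = 0.245). Fstl1, a secreted glycoprotein (1.15 ± 0.50), Adipoq, the adipokine adiponectin (1.51 ± 0.68), and Serping1, the C1 inhibitor of complement (0.97 ± 0.51), followed. The list summed to between 223 and 296 CPM in MI-E and between 164 and 174 CPM in MI, so the groups did not overlap on this sum. On the mean log2 CPM of the list they did, with 2.29 to 2.90 in MI-E against 1.31 to 2.36 in MI. It summed to 157 to 251 CPM in Sham and 110 to 292 CPM in Sham-E. Cdh2 had no count in MI library 2, and no other of the 21 was at 0 in any library. Nes had too few counts to be tested.

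Across the remaining comparisons the list median was -0.19 in MI against Sham (4 of 21 positive), -0.14 in Sham-E against Sham (7 of 21), 1.12 in the interaction (19 of 21) and 0.76 in MI-E against Sham-E (18 of 21). The last pair shares the MI-E libraries with MI-E against MI. None of the 21 passed edgeR in them. At an unadjusted p under 0.05, 1 did in MI against Sham (beside 19.5% of all genes), 1 in Sham-E against Sham (1.9%), 1 in the interaction (13.5%) and 5 in MI-E against Sham-E (13.4%). limma-voom and limma on TPM called 0. DESeq2 called Mgp, a matrix protein that inhibits calcification, in MI-E against Sham-E (log2 fold change 3.23, DESeq2 adjusted p = 0.038).

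Other cell type lists moved beside the stromal one in MI-E. Of 15 megakaryocyte genes, 14 had a positive log2 fold change in MI-E against MI, with a median of 0.86, and 14 in MI-E against Sham-E, with a median of 1.06. They summed to 510 to 560 CPM in MI-E against 324 to 504 CPM in MI, 391 to 427 CPM in Sham-E and 380 to 502 CPM in Sham. On these sums, to which Nbeal2 alone gave 185 to 319 CPM, MI-E lay above every other group. Averaged as log2 CPM, the same genes did not set MI-E (3.85 to 4.15) apart from Sham (2.4 to 3.86). MI (2.71 to 3.67) and Sham-E (2.38 to 3.31) lay below MI-E on that scale too. By edgeR 0 passed after adjustment in either comparison, while 5 (beside 17.4% of all genes) and 11 (beside 13.4%) did at an unadjusted p under 0.05. DESeq2 called Gp9 in MI-E against MI and Gp1bb, Itga2b and Pf4 in MI-E against Sham-E, and limma-voom and limma on TPM called 0. The lowest p in MI-E against MI belonged to Gp9 (1.48 ± 0.44, SE, edgeR adjusted p = 0.148), which with Gp1bb codes for chains of the platelet receptor for von Willebrand factor. The 6 tested muscle genes all had a positive log2 fold change in MI-E against MI, and Cxcl12 had r = 0.41 with them (permutation adjusted p = 0.54). All 10 genes of the muscle list, tested or not, summed to 7 to 14.1 CPM in MI-E and 5.23 to 5.9 CPM in MI. The part of these cell types in the Cxcl12 values was not tested.

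**Figure D4:**
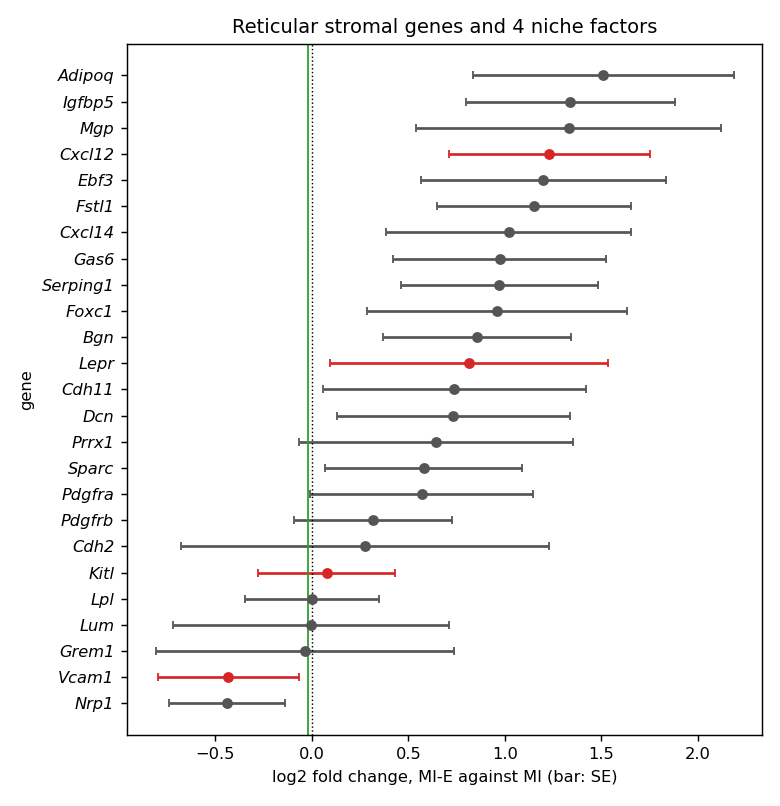
edgeR log2 fold change in MI-E against MI (points) with its SE (bars) for the 21 tested reticular stromal genes (grey) and for Cxcl12, Lepr, Kitl and Vcam1 (red). The green line is the median of all genes, -0.02; most stromal genes lie to its right, Cxcl12 at 1.23 among the upper ones, and Vcam1 at -0.43 to its left.

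To set each factor against the stromal genes of its own library, the list mean was taken from its log2 CPM. This measure was chosen after the values were seen. For Cxcl12 the difference was 5.04, 4.65 and 4.56 in Sham, 4.96, 4.83 and 5.12 in Sham-E, 4.98, 4.89 and 4.55 in MI and 5.21, 5.29 and 5.33 in MI-E. The 3 MI-E libraries were the highest of the 12. MI-E exceeded MI by 0.47 while the list itself differed by 0.78, and it exceeded Sham-E by 0.31 while the list differed by 1.05. The exact two-sided permutation p was 0.1 for each, the smallest that 3 against 3 libraries can give, and 0.5 after adjustment over the 20 comparisons of this kind. Leaving Sparc, which osteoblasts also make, out of the list gave 0.46 and 0.29.

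Lepr relative to the list differed by 0.04 between MI-E and MI (exact p = 0.9). Kitl relative to the list was 0.70 lower on the log2 scale in MI-E, at 0.40 ± 0.30 against 1.10 ± 0.66 (SD, n = 3 each, exact p = 0.2). Vcam1 relative to the stromal list stood at 5.17 ± 0.22 in MI-E and 6.22 ± 0.54 in MI (SD, n = 3 each), without overlap (exact p = 0.1, adjusted 0.5). Both the Kitl and the Vcam1 difference take in the 0.78 by which the list itself was higher in MI-E. On their own, Kitl differed by 0.08 and Vcam1 by -0.43, with overlapping libraries. The share of all genes without overlap on this relative scale was not computed. Relative to the macrophage list, Vcam1 was at 2.53 in both groups (exact p = 1).

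**Figure D5:**
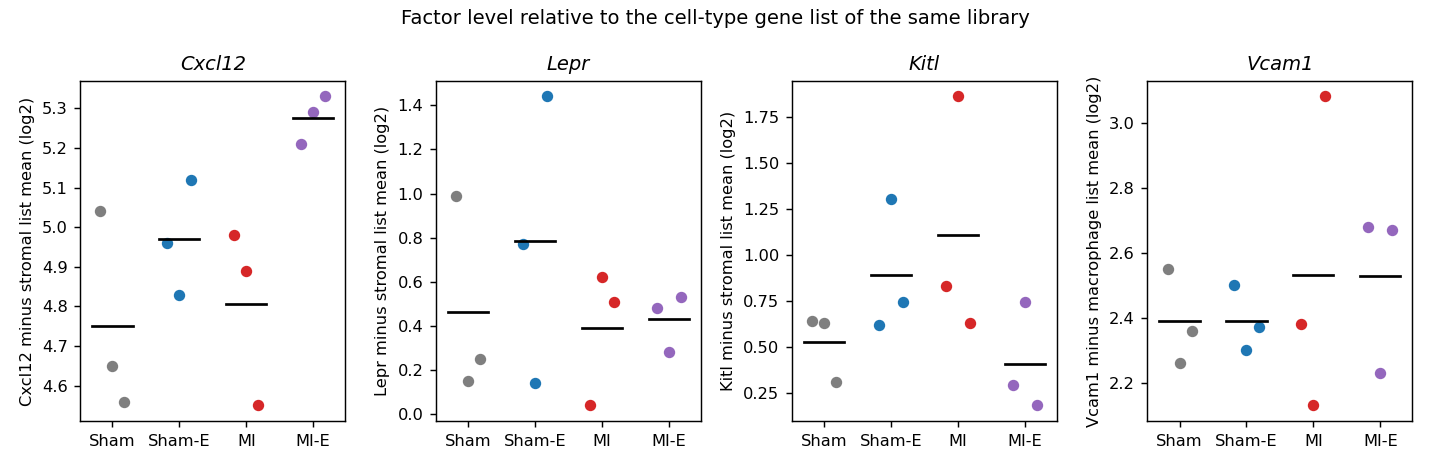
log2 CPM of 4 genes less the mean log2 CPM of the reticular stromal list (for Vcam1, of the resident macrophage list) of the same library; points are libraries and lines are group means. The vertical axes differ between panels and do not start at 0. Cxcl12 is at 5.21 to 5.33 in MI-E and at 4.55 to 5.12 elsewhere.

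Receptors, alternative ligands, adhesion partners and proteases of the 7 factors were read as a list of 30 genes, of which 25 could be tested. None passed edgeR in any of the 5 comparisons. At an unadjusted p under 0.05, 4 passed in MI against Sham, 3 in MI-E against MI, 1 in the interaction, 2 in MI-E against Sham-E and 0 in Sham-E against Sham. The shares of all genes were 19.5%, 17.4%, 13.5%, 13.4% and 1.9% in that order, so the partner list was below the background in each of the 5. The list medians ran from -0.05 to 0.15. In MI against Sham the lowest p belonged to Csf1, the macrophage growth factor, at 21.5, 21.7 and 19.4 CPM in Sham and 15.9, 15.8 and 14.6 CPM in MI. These groups did not overlap (-0.44 ± 0.14, edgeR adjusted p = 0.116), and DESeq2 called the gene (adjusted p = 0.038). Tie1, the co-receptor of TEK (-0.70 ± 0.28), Mmp9, the neutrophil gelatinase (0.56 ± 0.22), and Spp1, osteopontin (1.20 ± 0.53), followed.

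In MI-E against MI, Mif was followed by Cd74, the surface receptor of MIF (0.53 ± 0.22, edgeR adjusted p = 0.251), Jag1, a Notch ligand (-0.76 ± 0.32, edgeR adjusted p = 0.254), and Csf1 (0.25 ± 0.14, edgeR adjusted p = 0.365). The neutrophil proteases Elane and Ctsg, which can cleave CXCL12 and VCAM1, were highest in Sham-E library 1, at 1940 and 751 CPM, against 561 to 900 and 176 to 390 CPM in the other 11 libraries. Kit, Tek, Itga4, Itgb1, Il7r, Ackr3, Dpp4, Elane and Ctsg are named as direct partners of the factors and not for their p-values. Lep, the ligand of LEPR, had no count in any library, and Thpo, Csf3, Dlk1 and Ptn had too few to be tested.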

How the data were processed

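Expected counts per gene, from RSEM and unscaled, and TPM values, scaled by transcript length to a common total, are as the authors deposited them in 2 tables of 53801 genes. Reads were handled with STAR 2.4.0j, CASAVA 1.8 and RSEM on mm10, per the submitters' processing notes. Columns of Sham and MI-E gave the group but not the sample. All values of the count table were whole. All 12 libraries entered 1 fit in edgeR 4.0.16 (R 4.3.3), with TMM scaling (factors 0.94 to 1.06), filterByExpr, 1 mean per group, robust quasi-likelihood F-tests and Benjamini-Hochberg adjustment over 15119 genes, threshold 0.05. CPM used the same factors, and log2 CPM a prior count of 2. DESeq2 1.42.0, limma 3.58.1 and the other alternatives are in the closing section. The fit was run on simulated data, with planted changes larger than the main log2 fold change of any member and none in genes as low as Il7. Its power for changes of the size seen in the members was not tested. Named genes were all members, the 3 genes most correlated with each (mean log2 CPM at least 1) and up to 4 genes per list with the smallest p. One of the genes so named is not reported here. Members and lists were chosen with earlier results of these data known. Insert length was recovered from the ratio of counts to TPM over genes of known length. No 2 libraries agreed within counting noise.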

Additional observations from a re-analysis of the deposited data

How the results depend on the processing

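No member was called in any of the 5 comparisons by the main test or by the alternatives run, and Cxcl12 kept a positive log2 fold change in MI-E against MI under all 19 (1.02 to 1.45). The number of genes called over all genes moved widely. Without a filter on low counts it was 156 in MI against Sham and 33 in MI-E against MI. DESeq2 called 1066 in MI against Sham, 577 in MI-E against MI, 2 in Sham-E against Sham, 212 in MI-E against Sham-E and 167 in the interaction. limma on log2(TPM + 1) called 282 in MI against Sham, 50 in MI-E against MI and 7 in the interaction, where limma-voom called 0. Fitting only the 2 groups compared gave 344 in MI against Sham and 3 in MI-E against MI, from fewer libraries. The cause of these moves was not tested. Leaving out each library in turn gave 1 to 1224 genes in MI against Sham, 1 to 988 in MI-E against MI, 0 in Sham-E against Sham, 0 to 117 in MI-E against Sham-E and 1 to 150 in the interaction. With the column number as a replicate block, 1 gene was called in MI against Sham and 0 in the interaction. Over 13 same-number pairs the deviations from group means had r from -0.21 to 0.15, and 4 of 12 libraries correlated best with their own number. These values show no strong pairing of libraries by number and cannot exclude one.

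Among members, 12 values outside the leave-one-out settings changed sign, all of them small. For Sham-E against Sham these were Cxcr4 at 0 (limma-voom), -0.01 (TPM) and -0.02 (block), Lepr at -0.23 (limma-voom) and Cxcl12 at 0.04 (block). On TPM, Cxcr4 was -0.03 in MI against Sham and -0.12 in MI-E against Sham-E, Vcam1 -0.15 in MI-E against Sham-E, and Kitl -0.04 and Il7 -0.01 in MI-E against MI. TPM also moved the median of all genes by -0.11 in MI against Sham and -0.13 in MI-E against Sham-E. With the block, Il7 was -0.06 in MI-E against Sham-E and Angpt1 -0.05 in the interaction. Il7 could not be tested in the 2-group fits with Sham, since the filter removed it there. Leaving out each library in turn changed the sign of 44 member values, in 21 pairs of a member and a comparison. In MI against Sham the ranges were Cxcl12 -0.47 to 0.18, Lepr -0.77 to 0.18 and Vcam1 -0.17 to 0.78. In MI-E against MI the ranges were Il7 -0.11 to 1.21, Vcam1 -0.7 to 0.25 and Cxcr4 -0.15 to 0.01. In Sham-E against Sham the ranges were Cxcl12 -0.91 to 0.36, Cxcr4 -0.11 to 0.27, Kitl -0.66 to 0.27, Vcam1 -0.12 to 0.25 and Lepr -1.05 to 0.87. In MI-E against Sham-E the ranges were Cxcr4 -0.16 to 0.21, Angpt1 -0.2 to 0.37, Lepr -0.36 to 1.46, Il7 -0.14 to 0.48 and Vcam1 -0.19 to 0.2. In the interaction the ranges were Cxcr4 -0.31 to 0.08, Kitl -0.19 to 0.74, Lepr -0.05 to 1.87, Angpt1 -0.32 to 0.25 and Vcam1 -0.76 to 0.19.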
